A study of Homo sapiens with 54 samples.

Results

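The kinases that phosphorylate SR proteins were followed across the whole series: CLK1, CLK2, CLK3 and CLK4, SRPK1 and SRPK2, and DYRK1A. Their rows were taken by gene symbol from a list chosen with earlier results of these data known, and are 7 of the 38137 genes in the table. All 7 were among the 15378 genes with enough counts to be tested. SR proteins are splicing factors with a tail rich in arginine and serine, and phosphate on that tail decides where the protein sits and what it binds. SRPK1 and SRPK2 act mostly in the cytoplasm, where their phosphorylation of the tail lets SR proteins be carried into the nucleus. The CLK kinases act in the nucleus and add further phosphate, which releases SR proteins from nuclear speckles to the pre-mRNA. DYRK1A, a kinase encoded on chromosome 21, also phosphorylates several SR proteins.

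RNA was sequenced from HEK293T cells, a human embryonic kidney cell line, in 18 groups of 3 biological replicates, harvested 48 h after transfection according to the labels. The paper names a later time of harvest. The treatment label of N2V8_S13 spells the effector otherwise than the titles, which were followed. In 15 groups the cells had been transiently transfected with a plasmid for RfxCas13d, an RNA-guided enzyme that cuts RNA, as the native protein (WT) or as the high-fidelity forms N2V7 or N2V8. Each of the 3 effectors was given crRNA 13 (S13), which targets C9ORF72, an additional crRNA named S3, S4 or S7 whose target site the labels do not give, or a non-targeting crRNA (NTG). The other groups received no effector: cells treated with the antisense oligonucleotides ASO2 or ASO4, which the study used against C9ORF72, and untransfected cells (UT). All cells carried the same wild-type genotype label and no group received a plasmid without an effector, so transfection, plasmid and effector cannot be told apart in a comparison with UT.

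Libraries held 9546773 to 15099225 estimated counts. The RNA of C9orf72 stood at 10.5 to 11.9 CPM (estimated counts of a gene scaled for library size) in ASO4 and at 21.9 to 34.8 CPM in the libraries of the other 17 groups. Of 8 HEK293T markers fixed for this work all 8 passed the low-count filter, and their summed level was 1367 to 2266 CPM. Of 8 markers of other lineages 1 passed it, and their summed level was 0.286 to 2.12 CPM. HBB and INS were at 0 in all 54 libraries, while GFAP, an astrocyte marker, was detected in every library, at 0.191 to 1.72 CPM. The second N2V7_S4 library stood apart: the spread of its genes around their group means was 0.523 on the log2 scale, against 0.269 or less in libraries outside that group. The tests of N2V7_S4 described for a kinase or for the SR proteins are therefore also given without it, while correlations across groups include it. A gene was called when it differed by over 0.32 on the log2 scale in either direction with an adjusted p under 0.05 (edgeR's quasi-likelihood F test with Benjamini-Hochberg adjustment), and a smaller difference with such a p is given as a value under the fold threshold. In bulk RNA, fewer cells with a transcript and less of it in each cell cannot be told apart. Counts were summed per gene, so a change between spliced forms of a kinase was not measured.

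Only 3 of the 7 kinases were called in any comparison, CLK3, CLK1 and SRPK1. There were 231 tests, which are the 7 genes in 21 comparisons between groups and in 12 comparisons of a crRNA effect between effectors. Of these, 13 were called, 8 higher and 5 lower, where 12.7% of all gene tests were called, 6.28% higher and 6.41% lower. A further 26 were under the fold threshold, so that 39 had an adjusted p under 0.05, as did 20.5% of all gene tests. CLK1 was called higher 6 times, CLK3 lower 5 times and SRPK1 higher 2 times, and CLK2, CLK4, SRPK2 and DYRK1A were called 0 times each. In the 21 comparisons between groups, 4.76% of the 147 tests of these kinases were called, against 11.2% of all gene tests, and in the 12 comparisons of effects 6 of 84 were called, against 15.2% of all gene tests.

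The promoter sequences of the 3 kinases that were called are shown so that their composition can be set beside their levels. Each is a RefSeq window of 300 bases on GRCh38.p14 that runs across a transcription start, printed on the strand of the gene. There were 2 windows listed for CLK3, 2 for CLK1 and 1 for SRPK1, and the first listed for each gene was taken. The windows are chr15:74608122-74608421 (+ strand) for CLK3, chr2:200864609-200864908 (- strand) for CLK1 and chr6:35921049-35921348 (- strand) for SRPK1. Capitals mark matches on either strand to a cyclic AMP response half-site (TGACG), an E-box (CACGTG), a GC box (GGGCGG) or a CCAAT box.
CLK3: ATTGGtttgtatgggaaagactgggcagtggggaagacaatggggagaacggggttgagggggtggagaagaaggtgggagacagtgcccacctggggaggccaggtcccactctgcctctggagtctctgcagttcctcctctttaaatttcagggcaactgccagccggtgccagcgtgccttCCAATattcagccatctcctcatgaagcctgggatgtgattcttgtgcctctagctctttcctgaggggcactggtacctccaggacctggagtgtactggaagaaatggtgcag
CLK1: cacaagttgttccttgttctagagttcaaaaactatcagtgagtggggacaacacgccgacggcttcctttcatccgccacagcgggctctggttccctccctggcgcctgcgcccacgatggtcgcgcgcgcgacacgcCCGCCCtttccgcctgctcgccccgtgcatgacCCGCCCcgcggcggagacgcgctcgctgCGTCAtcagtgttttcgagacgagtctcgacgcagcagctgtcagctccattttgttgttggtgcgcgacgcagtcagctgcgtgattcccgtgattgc
SRPK1: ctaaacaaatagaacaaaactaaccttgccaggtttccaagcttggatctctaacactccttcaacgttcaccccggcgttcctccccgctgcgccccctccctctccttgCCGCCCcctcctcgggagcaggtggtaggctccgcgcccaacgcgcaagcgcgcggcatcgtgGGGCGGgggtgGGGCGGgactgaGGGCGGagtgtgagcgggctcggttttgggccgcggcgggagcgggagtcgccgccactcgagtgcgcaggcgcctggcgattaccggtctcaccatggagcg
The CLK3 window held 2 CCAAT boxes and none of the others, with 56% G and C. The CLK1 window held 1 half-site and 2 GC boxes, with 62.7% G and C, and the SRPK1 window held 4 GC boxes, with 67%. Of 27305 promoter windows of the same length, 25% held the half-site, 7.43% the E-box, 44.6% the GC box and 35.7% the CCAAT box. A heat shock element (GAANNTTC) was in 6.87% of windows and in none of the 3. Exact matches of 31 bases between transcripts of the 7 kinases were few: CLK1 and CLK4 shared 4 such words, and every other pair shared 0. Likeness short of an exact match was not measured.

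CLK3, a nuclear member of the CLK family, was the 1 kinase of the 7 whose libraries with an effector did not overlap those without one. Its level ran from 39.8 to 54.4 CPM, with a median of 44.9 CPM, in the 45 libraries with an effector, against 59.8 to 74.2 CPM, with a median of 66.6 CPM, in the 9 libraries without one. Such a separation with lower values under an effector was seen for 46 of 15378 genes, or 0.299%, a share that leaves out genes separated with higher values. Group means were 40.3 to 51.3 CPM in the 15 groups with an effector, against 62.0 CPM in UT and up to 70.5 CPM in ASO4.

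With NTG, CLK3 was 41.7, 41.4 and 41.1 CPM in N2V8_NTG, 49.4, 42.8 and 41.1 CPM in N2V7_NTG and 49.3, 54.4 and 50.1 CPM in WT_NTG, against 63.7, 59.8 and 62.6 CPM in UT. All 9 NTG libraries were below all 3 UT libraries, and 51.2%, 44.3% and 25.3% of all genes did not overlap between N2V8_NTG, N2V7_NTG or WT_NTG and UT. CLK3 fell by 0.58 ± 0.07 on the log2 scale in N2V8_NTG (SE, 95% interval -0.71 to -0.45, adjusted p = 2.11e-10). It fell by 0.48 ± 0.07 in N2V7_NTG (95% interval -0.61 to -0.35, adjusted p = 2.58e-08). These 2 calls held each time 1 library was left out. In WT_NTG the difference from UT was -0.27 ± 0.06 (adjusted p = 0.000508), under the fold threshold. Across all genes 29.9% were called in N2V8_NTG, 20.8% in N2V7_NTG and 5.1% in WT_NTG against UT. The 3 comparisons share the UT libraries.

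CLK3 was also the 1 kinase called for crRNA 13. It stood at 40.2, 40.8 and 39.8 CPM in WT_S13, against 49.3, 54.4 and 50.1 CPM in WT_NTG, and the 2 groups did not overlap, as for 39.2% of all genes. It fell by 0.35 ± 0.07 on the log2 scale (95% interval -0.48 to -0.22, adjusted p = 7.16e-05), where 10.8% of all genes were called. Without the second WT_NTG library the fall was 0.30 (adjusted p = 0.00185), under the fold threshold. With the same crRNA the difference was 0.00 ± 0.07 in N2V7 (adjusted p = 0.991), where CLK3 was 42.8, 47.0 and 43.9 CPM in N2V7_S13, and 0.15 ± 0.07 in N2V8 (adjusted p = 0.131), where it was 41.3, 47.1 and 49.1 CPM in N2V8_S13. In these 2 comparisons 11.4% and 2.44% of all genes were called.

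The effect of crRNA 13 on CLK3 differed between effectors when the difference itself was tested. The WT effect minus the N2V8 effect was -0.49 ± 0.09 (95% interval -0.68 to -0.30, adjusted p = 8.56e-05), where 18.3% of genes were called. The WT effect minus the N2V7 effect was -0.35 ± 0.09 (95% interval -0.54 to -0.16, adjusted p = 0.00458), where 14.9% were called. The second of these dropped under the fold threshold, to between -0.31 and -0.29, without the second WT_NTG, the third N2V7_NTG or the second N2V7_S13 library. As the effects are set against each effector's own NTG group, the lower CLK3 of N2V7_NTG and N2V8_NTG enters them. WT_S13 averaged 40.3 ± 0.49 CPM, N2V7_NTG 44.4 ± 4.37 CPM, N2V8_NTG 41.4 ± 0.32 CPM and WT_NTG 51.3 ± 2.73 CPM (SD, n = 3 each). Compared directly, N2V8_NTG was -0.31 ± 0.07 from WT_NTG (adjusted p = 0.000281) and N2V7_NTG was -0.20 ± 0.07 (adjusted p = 0.0144), both under the fold threshold, where 23.8% and 10.7% of genes were called. The N2V8_NTG difference passed the fold threshold without the first or the third WT_NTG library, at -0.33 and -0.32, and in the absence of a low-count filter, at -0.33. Between N2V8 and N2V7 the S13 effect, N2V7 minus N2V8, was -0.14 ± 0.10 (adjusted p = 0.303), where 14.2% of genes were called.

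**Figure D1:**
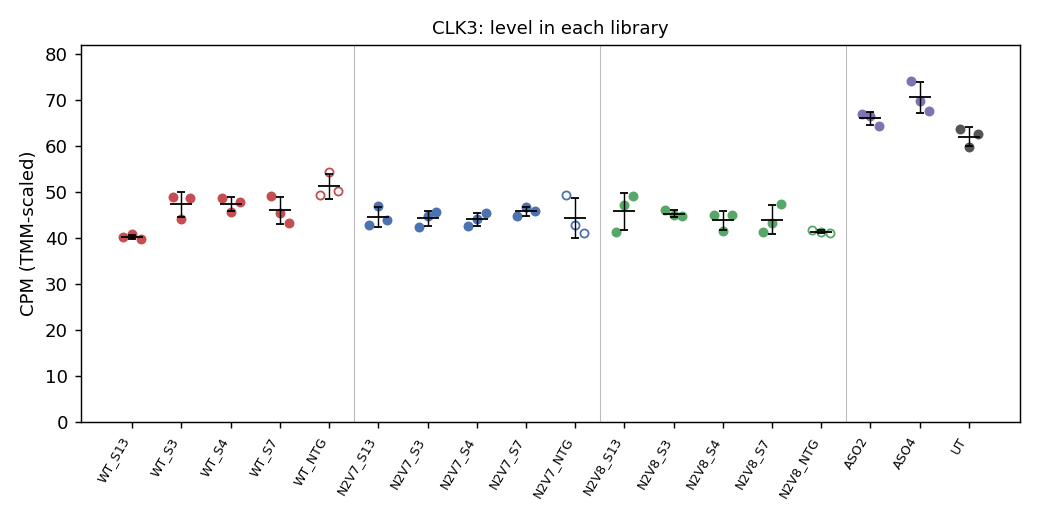
CLK3 level in CPM (y axis) in each of the 54 libraries (points) by group (x axis), with the mean and SD of the 3 libraries of a group as a bar. Red is WT, blue N2V7, green N2V8 (open points: NTG), purple the ASO groups and grey UT. All 45 libraries with an effector are at or under 54.4 CPM and the 9 libraries without one are at or over 59.8 CPM, with WT_S13 lowest at 40.3 CPM.

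With S3, S4 or S7, CLK3 was not called in any effector. In WT the differences from NTG were -0.11 ± 0.06 for S3, -0.11 ± 0.06 for S4 and -0.16 ± 0.07 for S7, with adjusted p of 0.254, 0.264 and 0.0931. In N2V7 and N2V8 they lay between -0.01 and 0.13, and for N2V7_S4 without its second library the value was -0.01 (adjusted p = 0.934). Of all genes, 2.74%, 2.67% and 19.2% were called in WT with S3, S4 and S7, 4.16%, 24.2% (10.9% without the second N2V7_S4 library) and 14.3% in N2V7, and 3.07%, 6.15% and 7.33% in N2V8. In cells given an oligonucleotide, CLK3 was not lower than in UT. ASO4 had 74.2, 69.8 and 67.6 CPM, against 63.7, 59.8 and 62.6 CPM in UT, a difference of 0.19 ± 0.06 (adjusted p = 0.0284), under the fold threshold. ASO2 had 67.0, 66.6 and 64.4 CPM, at 0.09 ± 0.06 (adjusted p = 0.367). In these comparisons 2.13% and 16.1% of genes were called. In the order of group means of CLK3 the gap between UT and WT_NTG was 10.8 CPM, and 12 of 17 neighbouring groups in that order overlapped.

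CLK1, a nuclear kinase whose own pre-mRNA is partly spliced to forms without an intact kinase domain, was the most variable of the called kinases and was never called lower. It rose with S7 in WT cells, to 20, 22.4 and 20.9 CPM in WT_S7, against 15.6, 13.3 and 15.2 CPM in WT_NTG. The rise was 0.52 ± 0.12 on the log2 scale (95% interval 0.28 to 0.76, adjusted p = 0.00105), or 1.43-fold, where 19.2% of genes were called, and it held each time 1 library was left out. With S3 in WT, CLK1 had its lowest level of the series, at 11.3, 11.1 and 12.2 CPM in WT_S3, against the same WT_NTG libraries, with no overlap, as for 19.9% of genes. That difference was -0.34 ± 0.13 (adjusted p = 0.0541), just over the threshold, in a comparison with 2.74% of genes called. It passed in the absence of a low-count filter (adjusted p = 0.0437), with limma-trend (0.0419) and without the second WT_NTG (0.0352) or the third N2V7_NTG library (0.0447). The N2V7_NTG library is not in this comparison, and without it the difference stayed at -0.34. S4 and S13 gave 0.08 ± 0.12 and -0.12 ± 0.12 in WT (adjusted p = 0.727 and 0.578).

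In N2V7 cells CLK1 was called with S4 only, and that call rested on few libraries. The level was 21.5, 27.5 and 19.8 CPM in N2V7_S4, against 18.3, 20.2 and 13.8 CPM in N2V7_NTG, and the groups overlapped. The rise was 0.38 ± 0.12 (95% interval 0.14 to 0.62, adjusted p = 0.0170), where 24.2% of genes were called. Without the second N2V7_S4 library, which stood apart and held the highest CLK1 of the series, the difference was 0.25 (adjusted p = 0.222), where 10.9% of genes were called. Without the third N2V7_NTG library it was 0.25 (adjusted p = 0.197), and in a fit of these 6 libraries alone the adjusted p was 0.282. S13, S3 and S7 in N2V7 gave 0.12, 0.11 and 0.23 (adjusted p = 0.550, 0.601 and 0.207). In N2V8 no crRNA was called for CLK1: the differences were -0.01 for S13, -0.07 for S3, -0.26 for S4 and -0.15 for S7.

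Between effectors, the S7 effect on CLK1 was larger in WT than in N2V8, by 0.67 ± 0.17 (95% interval 0.32 to 1.01, adjusted p = 0.00304), where 29.2% of genes were called, and the call held without any 1 library. The S4 effect was larger in N2V7 than in N2V8, by 0.65 ± 0.17 (95% interval 0.31 to 0.99, adjusted p = 0.00393), where 20.6% were called. Without the second N2V7_S4 library it was 0.51 (adjusted p = 0.0422), where 10.6% were called, and the adjusted p was 0.0793 in a fit of the compared libraries alone. The S3 effect, WT minus N2V7, was -0.45 ± 0.18 (adjusted p = 0.0603), where 6.46% were called. It passed without the second WT_NTG (adjusted p = 0.0407), the second N2V7_NTG (0.0219) or the third N2V7_S3 library (0.0329), and with limma-trend (0.0494). The S7 effect, N2V7 minus N2V8, was 0.38 ± 0.17 (adjusted p = 0.123), where 18% were called, and 0.49 (adjusted p = 0.0480) without the second N2V7_NTG library.

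CLK1 was higher with N2V8 and NTG than in both of its references, at the edge of the threshold. It had 19.7, 19.7 and 17.4 CPM in N2V8_NTG, against 14.1, 14.5 and 15.9 CPM in UT and 15.6, 13.3 and 15.2 CPM in WT_NTG, with no overlap in either case. Of all genes 51.2% and 49.8% did not overlap in these 2 comparisons. It rose by 0.36 ± 0.12 over UT (95% interval 0.11 to 0.61, adjusted p = 0.0224) and by 0.36 ± 0.12 over WT_NTG (95% interval 0.12 to 0.61, adjusted p = 0.0200), where 29.9% and 23.8% of genes were called. Without the first or second N2V8_NTG library or the first or second UT library the rise over UT lost its call (adjusted p = 0.0727, 0.0726, 0.0695 and 0.0815). The rise over WT_NTG lost it without the first or second N2V8_NTG library or the second WT_NTG library (adjusted p = 0.0689, 0.0710 and 0.106). With no factor of unwanted variation in the fit the adjusted p was 0.0526 and 0.0516. N2V7_NTG gave 0.23 ± 0.12 over UT (adjusted p = 0.160) and 0.24 ± 0.12 over WT_NTG (adjusted p = 0.145), which became 0.37 and 0.38 (adjusted p = 0.0259 and 0.0251) without the third N2V7_NTG library. With the oligonucleotides CLK1 was 0.22 ± 0.12 (ASO2, adjusted p = 0.234) and 0.28 ± 0.12 (ASO4, adjusted p = 0.117) from UT, and the ASO4 value was 0.40 (adjusted p = 0.0260) without the third ASO4 library.

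SRPK1, the cytoplasmic kinase best known for phosphorylating SRSF1, was the most tightly measured of the 7. The spread within groups was 0.047 on the log2 scale, against a median of 0.159 over all genes tested, and each library held 3176 to 4822 counts of it. It passed the adjusted p in 16 of its 33 tests, against 20.5% of all gene tests, and was called in 2, against 12.7%. Tests of the same effector share its NTG libraries. With S7 in WT it had 391, 404 and 391 CPM in WT_S7, against 336, 321 and 307 CPM in WT_NTG. All 3 WT_S7 libraries were above all 3 WT_NTG libraries, and 44% of genes did not overlap in that comparison. The difference was 0.30 ± 0.04 (95% interval 0.22 to 0.38, adjusted p = 1.34e-07), which stayed under the fold threshold, and without the first WT_NTG library it passed it, at 0.33. S13, S3 and S4 in WT gave -0.03, -0.02 and 0.01, each ± 0.04.

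In N2V8 cells SRPK1 was lower with each of the 4 crRNAs than with NTG. It had 341, 343 and 332 CPM in N2V8_S13, 331, 320 and 325 CPM in N2V8_S3, 335, 347 and 335 CPM in N2V8_S4 and 328, 333 and 316 CPM in N2V8_S7, against 384, 369 and 393 CPM in N2V8_NTG. All of these libraries were below the lowest NTG library, and 23.8%, 22.5%, 30.5% and 31.8% of all genes did not overlap with S13, S3, S4 and S7. The differences were -0.17 ± 0.04 for S13 (adjusted p = 0.00157), -0.23 ± 0.04 for S3 (2.26e-05), -0.17 ± 0.04 for S4 (0.00143) and -0.23 ± 0.04 for S7 (2.85e-05), all under the fold threshold. The 4 comparisons share the N2V8_NTG libraries. Those libraries were themselves 0.13 ± 0.04 from UT (adjusted p = 0.0155), at 364, 344 and 343 CPM in UT, and 0.25 ± 0.04 from WT_NTG (adjusted p = 3.75e-06). At an adjusted p under 0.05 and any fold, 9.21% of genes passed for S13, 9.28% for S3, 14.6% for S4 and 17% for S7 in N2V8.

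Both called results of SRPK1 were differences in the S7 effect. The effect in WT exceeded that in N2V8 by 0.53 ± 0.06 (95% interval 0.41 to 0.65, adjusted p = 5.28e-10), where 29.2% of genes were called, and that in N2V7 by 0.41 ± 0.06 (95% interval 0.29 to 0.52, adjusted p = 4.17e-07), where 25.4% were called. Both held each time 1 library was left out and under every other setting tried. As the effects are set against each effector's own NTG group, the higher SRPK1 of N2V7_NTG and N2V8_NTG enters them. In N2V7 the differences from NTG were -0.15 ± 0.04 for S3 (adjusted p = 0.00855), -0.11 ± 0.04 for S7 (0.0679), -0.07 ± 0.04 for S13 (0.279) and 0.08 ± 0.04 for S4 (0.190), or 0.03 for S4 without the second N2V7_S4 library (0.709). With NTG alone, N2V7_NTG was 0.18 ± 0.04 from WT_NTG (adjusted p = 0.000814) and WT_NTG was -0.12 ± 0.04 from UT (adjusted p = 0.0171). The oligonucleotide groups were -0.12 ± 0.04 (ASO2, adjusted p = 0.0307) and -0.11 ± 0.04 (ASO4, adjusted p = 0.0661) from UT.

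**Figure D2:**
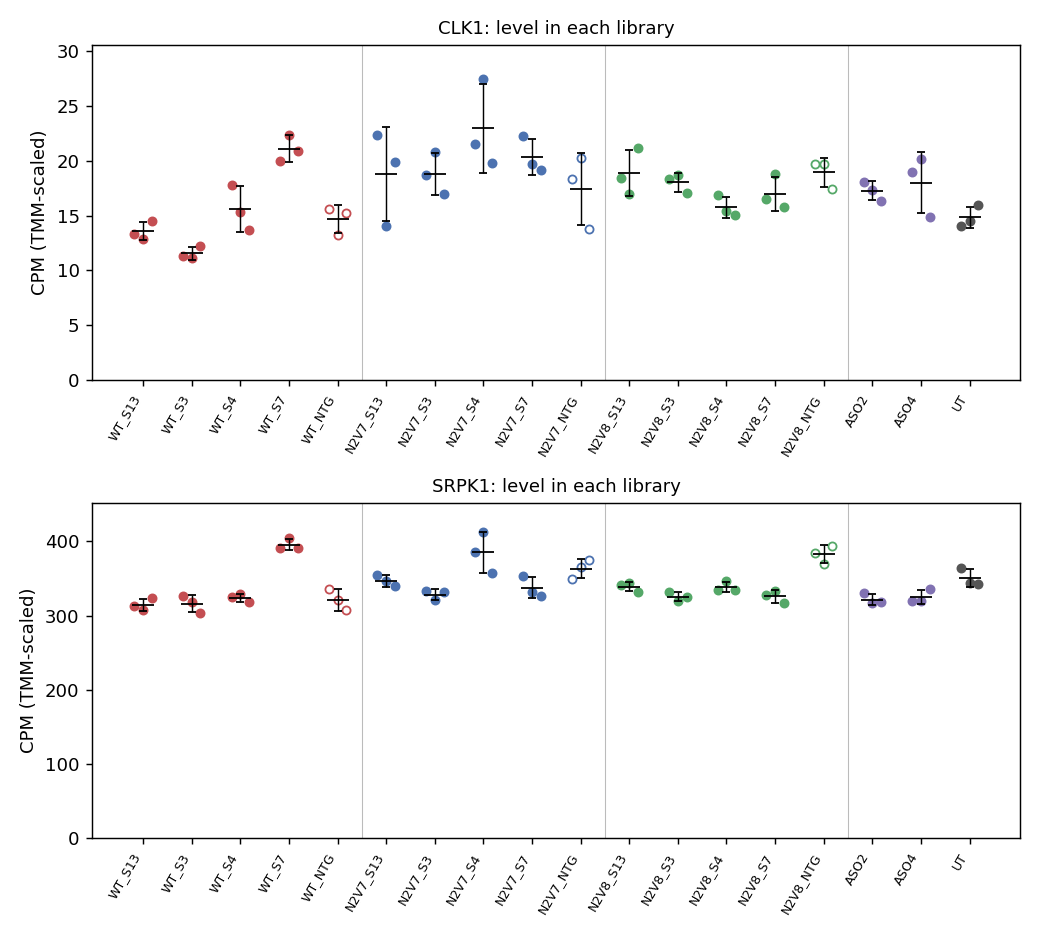
Levels of CLK1 (top) and SRPK1 (bottom) in CPM (y axes, from 0) in each of the 54 libraries (points) by group (x axis), with the mean and SD of 3 libraries as a bar. Red is WT, blue N2V7, green N2V8 (open points: NTG), purple ASO2 and ASO4, grey UT. CLK1 and SRPK1 stand above WT_NTG in all 3 WT_S7 libraries, and every crRNA library of N2V8 has less SRPK1 than the 3 N2V8_NTG libraries. CLK1 varies more within groups, with the second N2V7_S4 library at 27.5 CPM.

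SRPK2, a close relative of SRPK1, had its lowest adjusted p between groups with ASO2. It had 73.6, 76.5 and 74.1 CPM in ASO2, against 87.4, 86.5 and 94.3 CPM in UT and 87.0, 83.5 and 92.0 CPM in ASO4. All 3 ASO2 libraries lay under those of both other groups, where 40.6% and 36.4% of genes did not overlap. The difference was -0.26 ± 0.06 from UT (95% interval -0.37 to -0.14, adjusted p = 0.000534) and -0.23 ± 0.06 from ASO4 (95% interval -0.34 to -0.12, adjusted p = 0.00152). Neither passed the fold threshold, where 16.1% and 12.5% of genes were called. ASO4 itself was -0.03 ± 0.06 from UT (adjusted p = 0.813). In WT_S13 SRPK2 had 80.3, 77.1 and 79.3 CPM, against 90.3, 83.4 and 90.2 CPM in WT_NTG, a difference of -0.16 ± 0.06 (adjusted p = 0.0406), under the fold threshold. In its other comparisons between groups it had an adjusted p of 0.256 or more.

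DYRK1A, the kinase also known for its part in Down syndrome, was called in no comparison. With S7 in N2V7 it had 68.5, 64.4 and 70.0 CPM, against 81.2, 79.6 and 72.2 CPM in N2V7_NTG, without overlap, as for 41.3% of genes. The difference was -0.20 ± 0.06 (adjusted p = 0.0108), under the fold threshold. The S7 effect in WT exceeded that in N2V7 by 0.29 ± 0.08 (adjusted p = 0.00654), under the fold threshold, and by 0.34 without the third N2V7_NTG library, which passed the fold threshold. ASO2 had 85.9, 81.1 and 80.5 CPM, against 69.2, 74.4 and 76.4 CPM in UT, a difference of 0.17 ± 0.06 (adjusted p = 0.0283), also under it.

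CLK2, another nuclear kinase of the CLK family, had 40.9, 41.4 and 40.3 CPM in N2V8_NTG, against 47.4, 48.6 and 49.7 CPM in UT and 44.7, 47.0 and 52.7 CPM in WT_NTG. The N2V8_NTG libraries lay under all of these, as 51.2% and 49.8% of genes did not overlap in the 2 comparisons and 29.9% and 23.8% were called. The differences were -0.25 ± 0.09 from UT (adjusted p = 0.0227) and -0.24 ± 0.09 from WT_NTG (adjusted p = 0.0313), under the fold threshold. Its other tests did not pass the adjusted p. N2V8 crRNA groups averaged 42.1 to 46.4 CPM.

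CLK4, the paralogue of CLK1, passed in none of its 33 tests. It had 75 to 157 counts per library, and its spread within groups was 0.170 on the log2 scale, close to the 0.166 of CLK1. Its standard errors in the comparisons between groups were 0.13 or 0.14, against a fold threshold of 0.32. The largest difference between groups was -0.33 ± 0.13 for ASO2 against ASO4 (95% interval -0.60 to -0.06, adjusted p = 0.0636), at 6.91, 8.32 and 8.66 CPM in ASO2, against 8.57, 9.72 and 11.7 CPM in ASO4. Without the first ASO4 library it was -0.44 (adjusted p = 0.0279) and passed. No kinase was called in the ASO comparisons, and the DESeq2 Wald test and limma-trend called 0 in them as well. At any fold, 4 of 14 tests against UT and 1 of 7 between ASO2 and ASO4 had an adjusted p under 0.05. The share of all gene tests at that p is given for the 33 comparisons together, at 20.5%, and not for these alone.

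**Figure D3:**
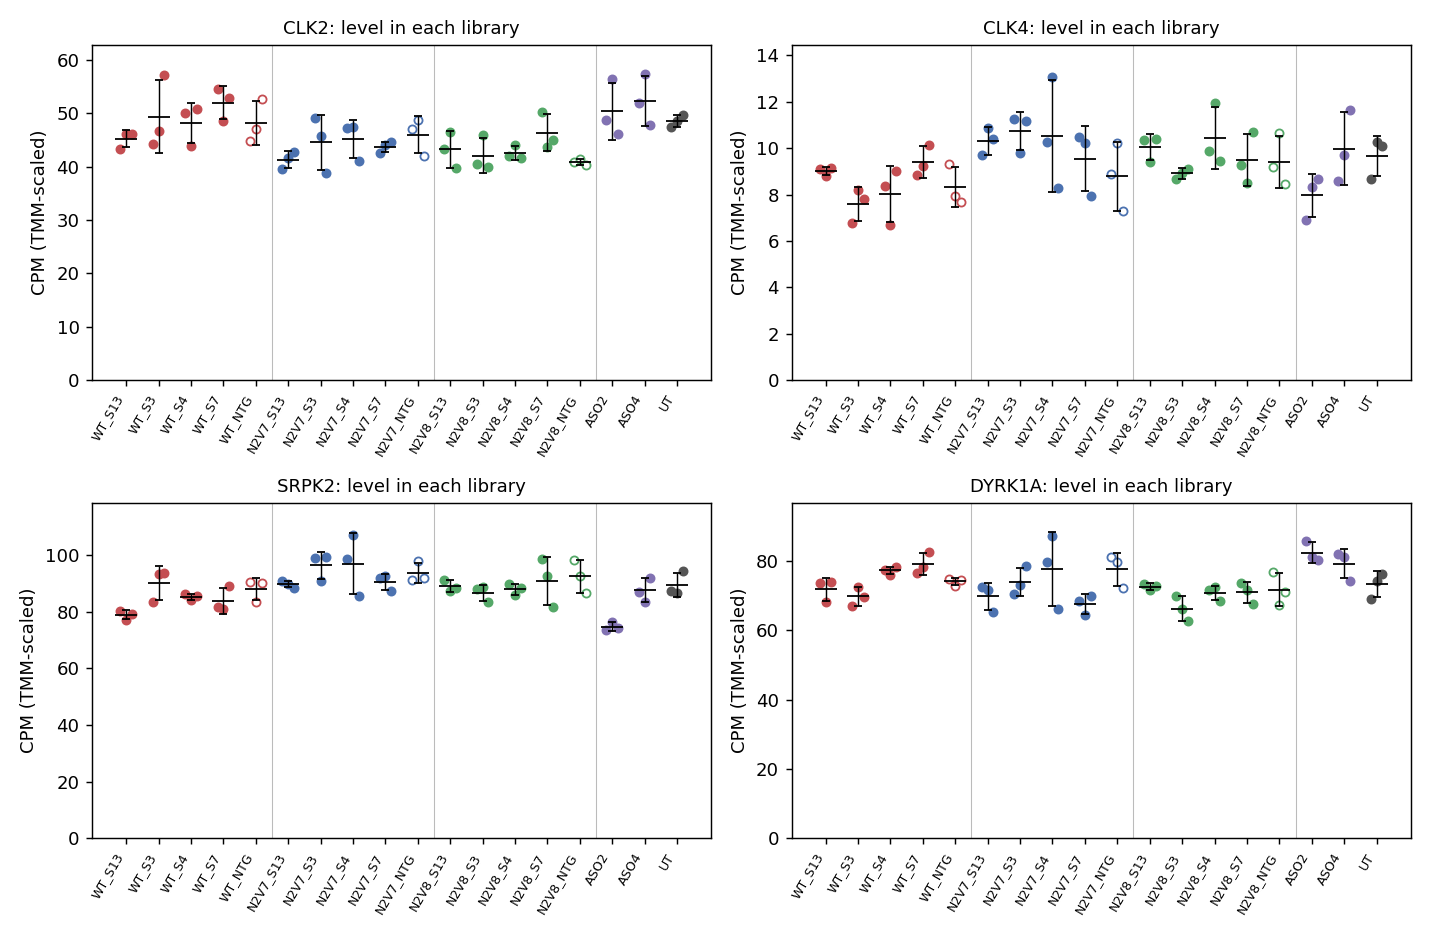
Levels of CLK2, CLK4, SRPK2 and DYRK1A in CPM (y axes, from 0) in each of the 54 libraries (points) by group (x axis), with the mean and SD of 3 libraries as a bar. Red is WT, blue N2V7, green N2V8 (open points: NTG), purple ASO2 and ASO4, grey UT. None of the 4 kinases was called in any comparison. SRPK2 is lowest in ASO2 at 74.7 CPM on average, CLK2 in N2V8_NTG at 40.9 CPM. CLK4, with the fewest counts, has group means from 7.59 CPM in WT_S3 to 10.7 CPM in N2V7_S3.

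**Figure D4:**
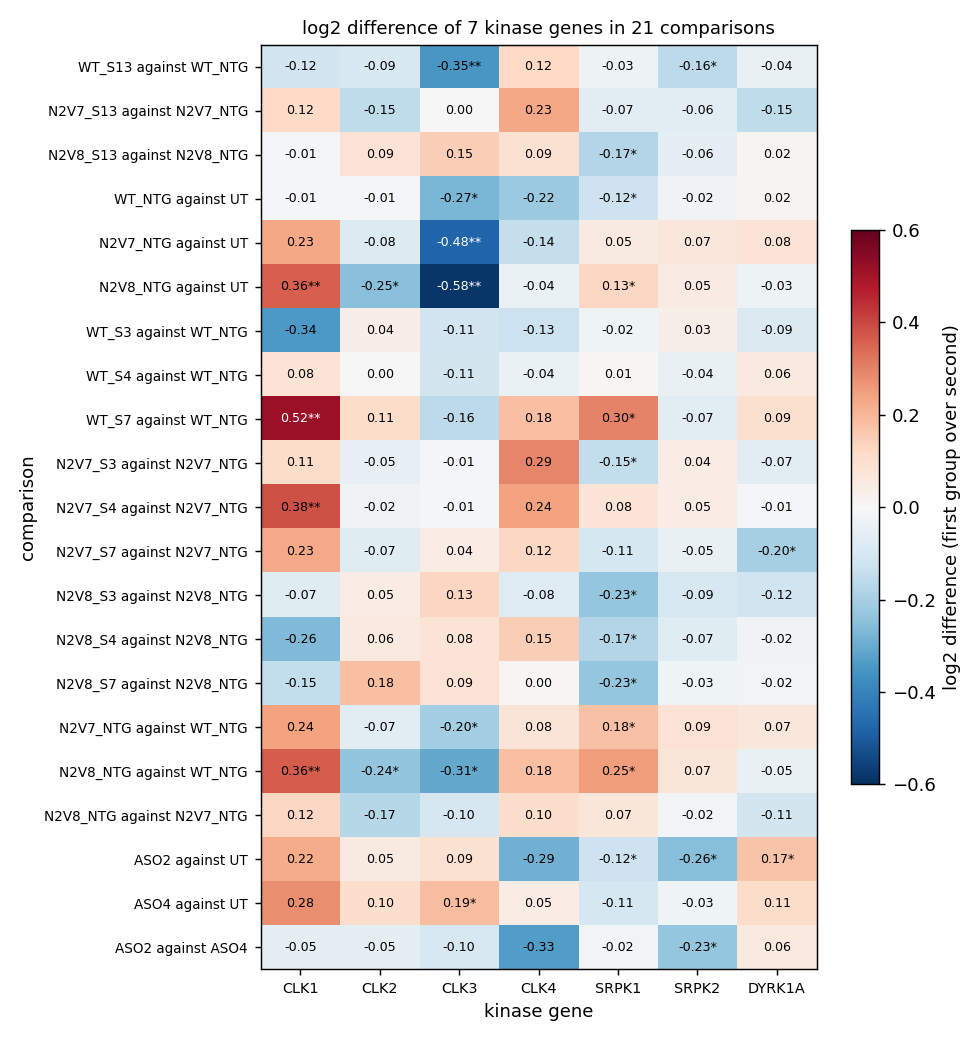
log2 difference (colour and number; first group over second) of the 7 kinase genes (x axis) in the 21 comparisons between groups (y axis). A double star marks a call and a single star an adjusted p under 0.05 under the fold threshold. The 7 calls are in CLK1 (4) and CLK3 (3), and SRPK1 has the most single stars.

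The levels of the 7 kinases over the 18 groups followed different patterns. Among pairs of kinases the correlation of group means ran from -0.43 for CLK2 and CLK4 to 0.69 for CLK2 and DYRK1A, with CLK2 and CLK3 at 0.67, CLK1 and SRPK1 at 0.65 and CLK1 and CLK4 at 0.59. SRPK1 and SRPK2 reached 0.37. All pairs are taken over the same libraries, and 15 of the 18 groups carried an effector, so these values are a description. Of 11758 other genes compared in the same way, those most like CLK3 were GTPBP2 (r = 0.95), STC1 (0.93) and CRYAB (0.93). For SRPK1 they were KPNA3 (0.90), HSPA8 (0.87) and BECN1 (0.87), for DYRK1A TSC22D2 (0.90), SON (0.90) and THUMPD1 (0.87), and for CLK2 GOLGA2 (0.91), ZNF146 (0.91) and ENTPD7 (0.91). CLK1 was followed by MARK3 (0.84), UIMC1 (0.80) and PPP2R2A (0.80), SRPK2 by YTHDC2 (0.82), PITPNA (0.80) and CCDC91 (0.80), and CLK4 by EYA1 (0.76), PRICKLE3 (0.74) and FASTKD3 (0.74).

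The SR proteins, the substrates of these kinases, were called in more of their tests than the kinases. Of 294 tests of 14 SR protein genes in the 21 comparisons between groups, 68 were called (23.1%), 54 higher and 14 lower, against 11.2% of all gene tests. SR proteins had a call in 16 of the 21 comparisons and the kinases in 6, each of which was among those 16. Without the second N2V7_S4 library these were 15 and 5, and over the other settings tried SR proteins had a call in 14 to 16 comparisons and the kinases in 4 to 7. A list of 14 genes has more room for a call than a list of 7. No count for other lists of these sizes is given, so the numbers of comparisons and their overlap are a description. In N2V8_NTG against UT 9 of 14 rose and 1 fell (median 0.55, against 0.00 over all genes), in N2V7_NTG 7 rose (median 0.41) and in WT_NTG 3 rose (median 0.04), where 29.9%, 20.8% and 5.1% of all genes were called. TRA2A, which with TRA2B forms the Tra2 pair of splicing activators, rose most, by 1.27 ± 0.07 in N2V8_NTG (adjusted p = 3.19e-22). SRSF1, the prototype SR protein and the main substrate of SRPK1, had 364, 389 and 378 CPM in N2V8_NTG, against 157, 172 and 156 CPM in UT, a rise of 1.22 ± 0.06 (adjusted p = 3.7e-22). SRSF2 rose by 1.03 ± 0.07 and TRA2B by 0.62 ± 0.06 in the same comparison.

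With crRNA 13, 6 of 14 SR proteins rose in WT and 0 fell (median 0.21), 0 were called in N2V7 (median -0.10) and 2 fell in N2V8 (median -0.20), where 10.8%, 11.4% and 2.44% of all genes were called. SRSF1 had 314, 315 and 309 CPM in WT_S13, against 236, 222 and 216 CPM in WT_NTG, a rise of 0.48 ± 0.06 (adjusted p = 6.06e-08). TRA2A rose by 0.55 ± 0.06, SRSF2 by 0.53 ± 0.07 and SRSF3 by 0.51 ± 0.07, while TRA2B was at 0.09 ± 0.06 (adjusted p = 0.304). In N2V8_S13, SRSF3 and SRSF2 each fell by 0.35 ± 0.06, and SRSF1 and TRA2B were at -0.32 and -0.21, under the fold threshold. In N2V7_S13 SRSF1, SRSF2 and TRA2B were at -0.20, -0.17 and -0.12. Each effect is set against the effector's own NTG group, and these differed: SRSF1 averaged 225 CPM in WT_NTG, 335 CPM in N2V7_NTG and 377 CPM in N2V8_NTG. With S13 it averaged 313 CPM in WT, 292 CPM in N2V7 and 303 CPM in N2V8, against 162 CPM in UT.

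With S7, 6 of 14 SR proteins rose in WT (median 0.24), 0 were called in N2V7 and 4 fell in N2V8 (median -0.22), where 19.2%, 14.3% and 7.33% of all genes were called. SRSF1 rose by 0.65 ± 0.06 in WT_S7 (adjusted p = 6.61e-12) and fell by 0.45 ± 0.06 in N2V8_S7 (adjusted p = 1.02e-07). Its mean was 352 CPM in WT_S7 and 276 CPM in N2V8_S7, against 225 CPM in WT_NTG and 377 CPM in N2V8_NTG. SRSF3 rose by 0.63 ± 0.07 and SRSF2 by 0.49 ± 0.07 in WT_S7, with TRA2B at 0.26 ± 0.06. SRPK1 and CLK1 were higher in WT_S7 in the same libraries. With S4, 3 fell in N2V8, among them SRSF2 by 0.57 ± 0.06, where 6.15% of genes were called. In N2V7_S4, the group with the library that stood apart, 2 rose and 1 fell, where 24.2% were called. Without its second library 0 were called, as in a fit of the compared libraries alone, while without its first library 5 rose and 1 fell and without the third 4 rose and 1 fell. With S3, SRSF8 rose by 0.33 ± 0.07 in WT and SRSF3 fell by 0.33 ± 0.06 in N2V8, where 2.74% and 3.07% of genes were called. No SR protein was called in N2V8_S3 with DESeq2 size factors, with the DESeq2 Wald test, in the absence of a low-count filter or in a fit of the compared libraries alone. In ASO2, SRSF12 fell to 14 ± 2.55 CPM, against 31 ± 3.46 CPM in UT (SD, n = 3 each), a fall of 1.15 ± 0.10 (adjusted p = 4.05e-13). SRSF6 rose by 0.56 ± 0.05 and SRSF8 by 0.54 ± 0.07, while SRSF1, SRSF2 and TRA2B stayed at 0.15, -0.03 and 0.05. Against ASO4, SRSF12 fell by 0.97 ± 0.10 in ASO2. With NTG, N2V8 against WT had 9 higher of 14, led by SRSF3 at 0.89 ± 0.07, SRSF2 at 0.83 ± 0.07 and SRSF1 at 0.75 ± 0.06, and N2V7 against WT had 5, where 23.8% and 10.7% of genes were called. Between N2V8_NTG and N2V7_NTG 0 were called, where 6.36% of genes were.

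**Figure D5:**
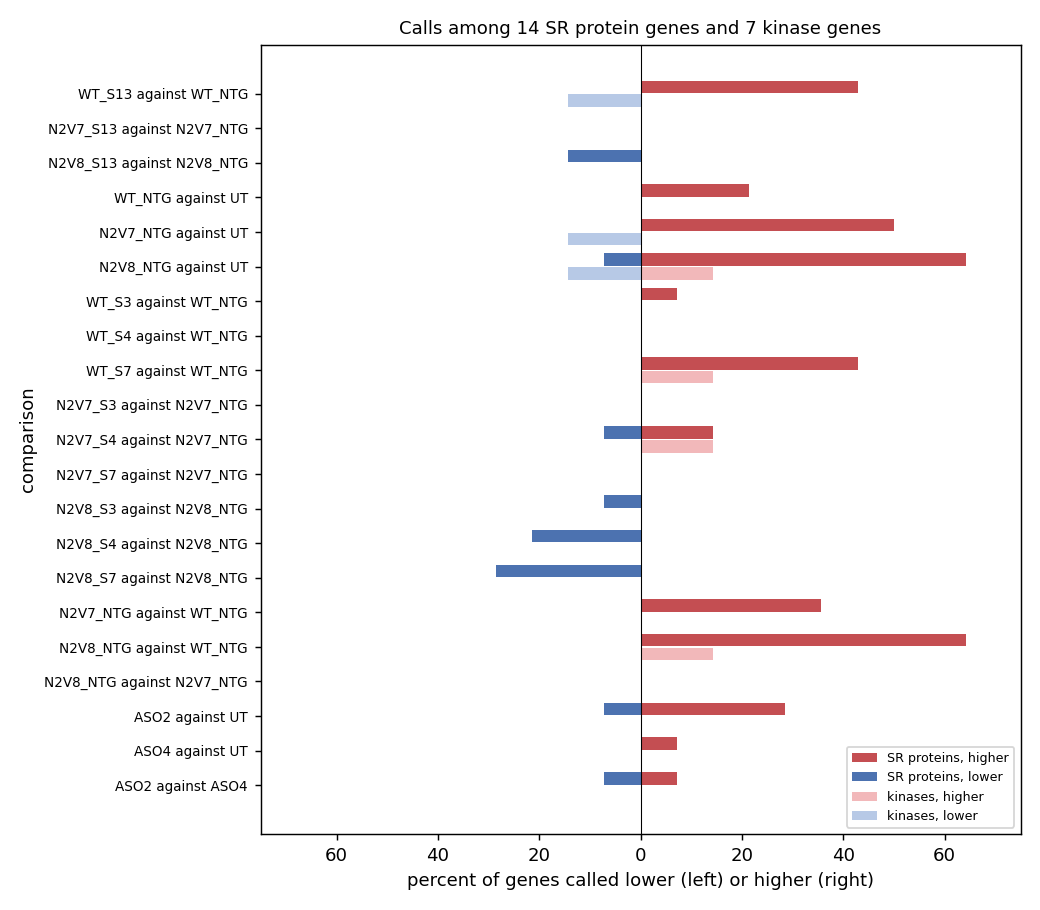
Percent of genes called higher (right of 0) or lower (left of 0; x axis) among 14 SR protein genes (dark bars, upper) and the 7 kinase genes (pale bars, lower) in each of the 21 comparisons between groups (y axis). SR proteins are called in 16 comparisons and kinases in 6 (15 and 5 without the second N2V7_S4 library), from lists of 14 and 7 genes. Of all gene tests in the 21 comparisons 11.2% were called. The longest bars are the 9 SR proteins of 14 higher in N2V8_NTG against UT and against WT_NTG.

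Of 18 related kinases and other enzymes that phosphorylate or regulate splicing factors, 16 were tested. SRPK3, the muscle relative of SRPK1 and SRPK2, did not pass the low-count filter, with 0 to 6 counts per library and 23 libraries at 0. PRPF4B, a kinase of the spliceosome, rose by 0.41 ± 0.08 in WT_S13 (adjusted p = 8.32e-05), by 0.64 ± 0.08 in WT_S7 (7.64e-09), by 0.57 ± 0.08 in N2V8_NTG against UT (4.26e-08) and by 0.56 ± 0.08 in N2V7_NTG against UT (5.98e-08). DYRK1B, the closest relative of DYRK1A, fell by 0.34 ± 0.11 in WT_S13 (adjusted p = 0.0244), by 0.54 ± 0.11 in WT_S7 (0.000357) and by 0.63 ± 0.11 in N2V8_NTG against UT (9.84e-06), in each of which DYRK1A was not called. HIPK2, a nuclear kinase of the same wider family, fell in N2V7 with S13 by 0.61 ± 0.08 and with S7 by 0.74 ± 0.08, and in ASO2 against UT by 0.44 ± 0.08, and DYRK4 rose in the same 3 comparisons by 0.59, 0.69 and 0.41. Of the 16, 1 was called higher and 1 lower in WT_S13, 1 and 2 in N2V7_S13 and 0 and 0 in N2V8_S13, where 10.8%, 11.4% and 2.44% of all genes were called. The counts were 2 and 1 in WT_S7 and 1 and 4 in N2V7_S7, against 19.2% and 14.3% of all genes. In N2V7_S4 they were 0 and 5, where 24.2% of all genes were called, with the library that stood apart included. They were 2 and 3 in N2V8_NTG, in N2V7_NTG and in ASO2 against UT, against 29.9%, 20.8% and 16.1% of all genes.

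Of 14 phosphatases, import factors and partners, HSP90AA1, an HSP90 chaperone, rose by 0.33 ± 0.06 in WT_S13, by 0.50 ± 0.06 in WT_S7 and by 0.51 ± 0.06 in N2V8_NTG against UT, and fell by 0.34 ± 0.06 in N2V8_S13 and by 0.45 ± 0.06 in N2V8_S7. CLASRP, an SR-like protein that binds CLK4, fell by 0.38 ± 0.11 in N2V7_S13 (adjusted p = 0.0107), by 0.39 ± 0.12 in WT_S7 (0.0118), by 0.41 ± 0.11 in N2V7_S7 (0.00494), by 0.54 ± 0.11 in N2V7_S4 (0.000243; 0.69 without its second library, 3.5e-05) and by 0.53 ± 0.12 in N2V8_S4 (0.000525), and rose by 0.50 ± 0.11 in N2V7_NTG against UT (0.000343) and by 0.36 ± 0.11 against WT_NTG (0.0095). It was not called in WT_S13 (0.15 ± 0.11) or with either oligonucleotide (0.02 and 0.07). PPP1CC, a catalytic subunit of protein phosphatase 1, which removes phosphate from SR proteins, rose by 0.36 ± 0.05 in N2V7_S13 (adjusted p = 6.07e-07). In all, this list had 2 higher and 0 lower in WT_S13, 3 and 1 in WT_S7 and 0 and 2 in N2V8_S7, where 10.8%, 19.2% and 7.33% of all genes were called. In N2V7_S4, with the library that stood apart included, it had 4 and 1, where 24.2% were called. It had 4 and 0 in N2V8_NTG and 3 and 0 in N2V7_NTG against UT, where 29.9% and 20.8% were called, and 0 and 0 with ASO2 and ASO4, where 16.1% and 2.13% were.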

How the data were processed

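Messenger RNA of HEK293T cells was measured in 54 libraries, 3 for each of the 18 groups in the labels. The authors deposited estimated counts, made with Salmon (version 1.5.2) on RefSeq transcripts with GRCh38 as decoy and summed by tximport with scaling for transcript length. A deposited mark for genes the authors kept (unit other) entered no test. Here counts were rounded and analysed in R (version 4.3.3).

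Of 38137 genes, filterByExpr of edgeR (version 4.0.16) kept 15378. After TMM scaling all libraries entered 1 quasi-likelihood fit, with terms for the groups and a single RUVr factor of unwanted variation. The N2V7_S4 libraries held 95.6% of the squared weight of this factor, which made up 21.8% of the variance left among replicates. Adjusted p were taken over the genes and contrasts of each of 8 families. The tests were checked on simulated data. Errors are SE for log2 differences and SD for levels. Coordinates and promoters are from RefSeq.

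The members and lists were chosen with earlier results of these data known. Named were the 7 kinases, up to 3 called genes per list and comparison with the largest change, SRSF1, SRSF2, TRA2B, SRPK3 and CLASRP, and the 3 genes most like each kinase by Pearson's r. Alternatives used limma (version 3.58.1), DESeq2 (version 1.42.0), other thresholds and filters, a replicate block, and each library left out. For the left-out libraries the gene set, scaling, dispersion trend and factor were kept, except for the N2V7_S4 libraries, where every step was repeated.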

Additional observations from a re-analysis of the deposited data

Results flagged for a closer look

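In 6 of 84 tests the effect of 1 crRNA on a kinase differed between 2 effectors, by a direct test of the difference (log2, the first effector minus the second). Of all gene tests of this kind 15.2% were called. For CLK3 and S13, WT minus N2V7 was -0.35 (adjusted p = 0.00458) and WT minus N2V8 was -0.49 (adjusted p = 8.56e-05). The first of these fell under the fold threshold without the second WT_NTG, the third N2V7_NTG or the second N2V7_S13 library. For CLK1, S4 gave 0.65 for N2V7 minus N2V8 (adjusted p = 0.00393) and S7 gave 0.67 for WT minus N2V8 (adjusted p = 0.00304). The S4 value had an adjusted p of 0.0422 without the second N2V7_S4 library and lost its call in a fit of the compared libraries alone (0.0793). For SRPK1 and S7, WT minus N2V7 was 0.41 (adjusted p = 4.17e-07) and WT minus N2V8 was 0.53 (adjusted p = 5.28e-10). The tests are edgeR's quasi-likelihood F test with Benjamini-Hochberg adjustment, and differences with 1 effector in common share its libraries. Each effect is set against the effector's own NTG group, so a difference between NTG groups enters it. Groups of 3 libraries are too small for a test of single libraries far from the rest.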

How the results depend on the processing

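Of the 13 calls, 8 held each time 1 library was left out, 9 held under every other alternative and 7 under all. No direction was reversed. The number of calls was 13 with DESeq2 size factors, with the DESeq2 Wald test and with adjustment within each comparison, 15 with limma-trend or without the low-count filter, 11 without the factor or with only the compared libraries, and 10 at an adjusted p under 0.01. For S3, S4 or S7 against NTG, 2 calls became 1 at an adjusted p under 0.01 and 1 with only the compared libraries. Between effectors with NTG, 1 call became 0 without the factor, 0 at an adjusted p under 0.01 and 2 without the low-count filter. With 1 library left out, the calls ran from 0 to 1 for S13 against NTG, 1 to 2 for the difference between effectors in the S13 effect, 2 to 4 for NTG against UT, 1 to 3 for S3, S4 or S7 against NTG, 4 to 6 for the difference in those effects, 0 to 2 between effectors with NTG, 0 to 1 for ASO against UT and 0 to 1 for ASO2 against ASO4. The cause was not tested. Over all genes, the calls for the difference in the S13 effect were 4747 at an adjusted p under 0.01, against 7289, and those for S3, S4 or S7 were 8433 with only the compared libraries, against 12878. The replicate numbers did not pair the samples: same-numbered libraries correlated at 0.0011 on average, and 19 of 51 correlated best with their own number. With the replicate block the calls were 13 in all, the same 13, with 1 for S13 against NTG, 2 for its difference between effectors, 3 for NTG against UT, 2 for S3, S4 or S7, 4 for their difference, 1 between effectors, and 0 with the oligonucleotides. CLK4 and CLK1 had the fewest counts of the 7, at 75 to 157 and 121 to 277 per library.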
